A study of Mus musculus with 12 samples.

Results

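The unfolded protein response and the folding and disposal machinery of the endoplasmic reticulum (ER) were followed here through 49 listed genes, taken by their symbols from the 24421 symbols of the count files. They fall into 7 stress sensors and transcription factors, 15 chaperones and cofactors, 10 disulfide isomerases and oxidases, 15 disposal factors and 2 ER membrane proteins. All 49 were found and all 49 passed the filter on low counts. The cells were Min6, a mouse insulinoma line labelled as beta cells of wild-type genotype. In 6 libraries (sh-Il22ra1) they carried an adenovirus with a knockdown hairpin against Il22ra1, the ligand-binding chain of the interleukin-22 receptor, and in 6 libraries (sh-ctrl) a control adenovirus. Both groups were infected for 48 h and given 0.3 mM palmitate, a saturated fatty acid, for 24 h, so every library comes from palmitate-treated cells and no untreated group was part of the comparison. The question was how loss of the receptor chain changes transcription in beta cells under palmitate. The number of hairpins, and whether samples came from separate cultures, were not stated in the labels. Each p-value therefore rests on a spread between samples that may be technical only.

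When unfolded proteins collect in the ER, 3 membrane sensors respond: IRE1 (encoded by Ern1), which splices Xbp1 mRNA so that an active transcription factor is made, ATF6, which is cut and sent to the nucleus, and PERK, which slows translation. The factors released this way bind short promoter elements and raise chaperones, disulfide isomerases and the components of ER-associated degradation (ERAD), which pulls misfolded proteins out of the ER to the proteasome. Beta cells load the ER heavily with proinsulin, whose folding needs disulfide bonds, and palmitate is widely used to stress their ER. Reads were counted per gene, so spliced and unspliced Xbp1 were counted together, and no protein, cleavage or phosphorylation was measured.

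Levels are in CPM, reads per 1000000 gene reads after scaling by TMM, and a change is the log2 fold change of sh-Il22ra1 over sh-ctrl with its standard error (SE). Between 13108494 and 15887448 reads per library fell in genes. Il22ra1 itself had 1 to 4 reads per library in sh-Il22ra1 and 7 to 20 in sh-ctrl, or 0.164 ± 0.0873 CPM and 0.831 ± 0.256 CPM (SD, n = 6 each), which did not overlap (two-sided exact permutation p = 0.00216, the smallest that 924 splits of 6 against 6 allow). All 10 beta cell markers were above 1 CPM, with summed levels of 64860 to 74090 CPM in sh-Il22ra1 and 72220 to 108800 CPM in sh-ctrl. Most of each sum was Ins2 and Iapp. Mean levels in sh-Il22ra1 and sh-ctrl were lower for Mafa (227 and 556 CPM), Slc2a2 (87.3 and 167 CPM), Iapp (19760 and 30590 CPM) and Nkx6-1 (147 and 173 CPM). Those of Ins1 and Ins2, given below, were lower too. Slc30a8 (314 and 266 CPM) and Abcc8 (1261 and 1058 CPM) were higher in sh-Il22ra1. Pdx1 (503 and 533 CPM) and G6pc2 (486 and 502 CPM) differed less. Marker sums of other cells also differed between the groups: the 5 leukocyte markers summed to 5.83 to 9.58 CPM and 18.6 to 27.2 CPM, nearly all of it Cd68, with Ptprc at 0.0902 and 0.0358 CPM. The 5 fibroblast markers summed to 0.949 to 2.13 CPM in sh-Il22ra1 and 2.84 to 6.04 CPM in sh-ctrl, and the 3 alpha cell markers to 139 to 154 CPM and 236 to 287 CPM, nearly all of it Gcg. The acinar markers reached at most 1.04 CPM, with Prss2 and Amy2a5 at 0. Of the 2 delta cell markers, Hhex was at 0, while Sst ranged from 4.46 to 6.85 CPM in sh-Il22ra1 and from 6.22 to 12.2 CPM in sh-ctrl. Reads without an alignment made up 8.71% to 11.8% of sh-Il22ra1 files and 12.8% to 17.3% of sh-ctrl files (exact permutation p = 0.00216, 0.00864 after Benjamini-Hochberg adjustment over 8 library measures). Reads that were ambiguous between genes (2.07% and 1.87%, adjusted p = 0.00864), reads with multiple alignments (4.22% and 3.96%, adjusted p = 0.0115) and the share of gene reads in the 10 most abundant genes (10.3% and 12.0%, adjusted p = 0.0173) also differed between sh-Il22ra1 and sh-ctrl by the same exact permutation test. The part of these differences in the results below was not tested. The sh-ctrl libraries spread along the second principal component, which held 13.7% of the variance. Replicates 1 and 4 lay at 18.2 and 31.9, replicates 2 and 6 at -17.7 and -16.2, and replicates 3 and 5 between. Replicates 1 and 4 were left out together in a further fit, but replicates 2 and 6 were not. Calls that change without replicates 1 and 4 are given beside each gene, and rest on leaving out a single end of this spread. In bulk RNA, fewer cells of a kind and less RNA per cell cannot be told apart.

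Promoter windows from RefSeq (GRCm38.p6, 250 bases before to 50 after the start) were available for 41 of the 49 genes. They were searched on both strands for the ER stress response element ERSE (CCAAT, 9 bases, CCACG), which ATF6 and XBP1 bind together with the CCAAT-binding factor NF-Y, and for its second form ERSE-II (ATTGG, 1 base, CCACG). The windows of 6 genes are printed 5′ to 3′ along the gene, with the element in capitals, because genes that carry ERSE or ERSE-II moved in different directions. Creld2 (chr15:88819396-88819695, plus strand) and Derl3 (chr10:75893148-75893447, plus strand) fell. Calr (chr8:84846882-84847181, minus strand), Syvn1 (chr19:6046326-6046625, plus strand) and Herpud1 (chr8:94386179-94386478, plus strand, ERSE-II) rose. Hspa5 (chr2:34771840-34772139, plus strand) did not pass the test.
Creld2: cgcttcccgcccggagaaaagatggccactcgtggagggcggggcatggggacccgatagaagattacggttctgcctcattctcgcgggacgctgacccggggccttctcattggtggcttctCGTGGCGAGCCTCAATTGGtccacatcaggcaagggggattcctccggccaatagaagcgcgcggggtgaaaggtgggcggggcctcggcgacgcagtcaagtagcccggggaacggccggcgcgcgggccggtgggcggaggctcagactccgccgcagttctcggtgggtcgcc
Derl3: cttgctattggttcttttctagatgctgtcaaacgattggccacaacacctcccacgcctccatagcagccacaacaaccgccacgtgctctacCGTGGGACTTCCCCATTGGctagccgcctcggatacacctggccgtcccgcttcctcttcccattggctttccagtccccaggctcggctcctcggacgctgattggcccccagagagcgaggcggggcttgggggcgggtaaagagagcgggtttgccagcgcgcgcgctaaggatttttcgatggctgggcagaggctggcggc
Calr: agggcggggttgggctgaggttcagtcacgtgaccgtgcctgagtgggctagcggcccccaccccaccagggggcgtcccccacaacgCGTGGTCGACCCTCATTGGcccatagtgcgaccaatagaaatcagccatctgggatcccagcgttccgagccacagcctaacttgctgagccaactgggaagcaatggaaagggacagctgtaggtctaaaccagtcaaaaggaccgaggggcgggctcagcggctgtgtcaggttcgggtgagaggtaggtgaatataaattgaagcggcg
Syvn1: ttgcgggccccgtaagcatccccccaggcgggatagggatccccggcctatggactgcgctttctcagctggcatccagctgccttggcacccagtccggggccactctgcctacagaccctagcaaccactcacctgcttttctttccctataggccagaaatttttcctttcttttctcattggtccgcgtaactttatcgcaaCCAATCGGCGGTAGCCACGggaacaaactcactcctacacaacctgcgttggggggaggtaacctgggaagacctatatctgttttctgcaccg
Herpud1: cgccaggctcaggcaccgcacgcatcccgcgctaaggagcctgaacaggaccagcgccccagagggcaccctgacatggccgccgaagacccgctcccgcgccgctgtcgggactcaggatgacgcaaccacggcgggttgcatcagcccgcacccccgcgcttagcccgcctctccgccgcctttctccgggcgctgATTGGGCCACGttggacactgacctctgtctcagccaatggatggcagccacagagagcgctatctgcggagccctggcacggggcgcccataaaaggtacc
Hspa5: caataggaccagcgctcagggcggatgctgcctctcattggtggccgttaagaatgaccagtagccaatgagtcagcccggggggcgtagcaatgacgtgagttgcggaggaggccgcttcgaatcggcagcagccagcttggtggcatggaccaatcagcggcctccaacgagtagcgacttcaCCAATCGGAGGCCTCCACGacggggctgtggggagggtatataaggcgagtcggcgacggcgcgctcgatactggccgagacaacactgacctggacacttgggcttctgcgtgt

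ERSE was found in 10 of the 41 genes with a window (24.4%), against 18 of the 10516 tested genes with a window (0.171%) and 39 of all 32851 windows (0.119%). The tested genes, here and below, include the 41. The 10 genes were Hspa5, Hsp90b1, Dnajc3, Calr, Canx, Creld2, Pdia6, Ero1lb, Syvn1 and Derl3, and Hsp90b1 held it at 2 places. ERSE-II was found in Herpud1 and Dnajb11, 2 of 41 genes (4.88%), against 8 tested genes (0.0761%) and 12 windows (0.0365%). The block CCACG alone, which lies within every ERSE and ERSE-II, was far more common, in 31 of 41 genes (75.6%), 52.3% of tested genes and 32.8% of windows. The UPR element core (TGACGTGG or TGACGTGA) was found in Hspa5, Txndc5, Txndc11 and Ube2j1 (9.76%), against 1.84% of tested genes and 1.12% of windows. The windows of Edem1 and Sdf2l1, which fell most after Creld2 among genes above 20 CPM, held neither ERSE form, which says only that these letters are not in these windows.

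Of the 10 genes with ERSE, 3 rose, 3 fell and 4 did not pass the test, with a median log2 fold change of -0.07. They ranged from -1.56 for Creld2 to 0.32 for Calr, as the plot of fold change against element position shows. Of the 31 genes with a window and no ERSE, 10 rose, 13 fell and 8 did not pass, with a median of -0.11. Among all 18 tested genes with ERSE, these 10 included, 4 rose, 6 fell and 8 did not pass. Among the 10498 tested genes with a window and no ERSE, 2689 rose, 2756 fell and 5053 did not pass. Genes of all 3 outcomes held the element.

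**Figure D1:**
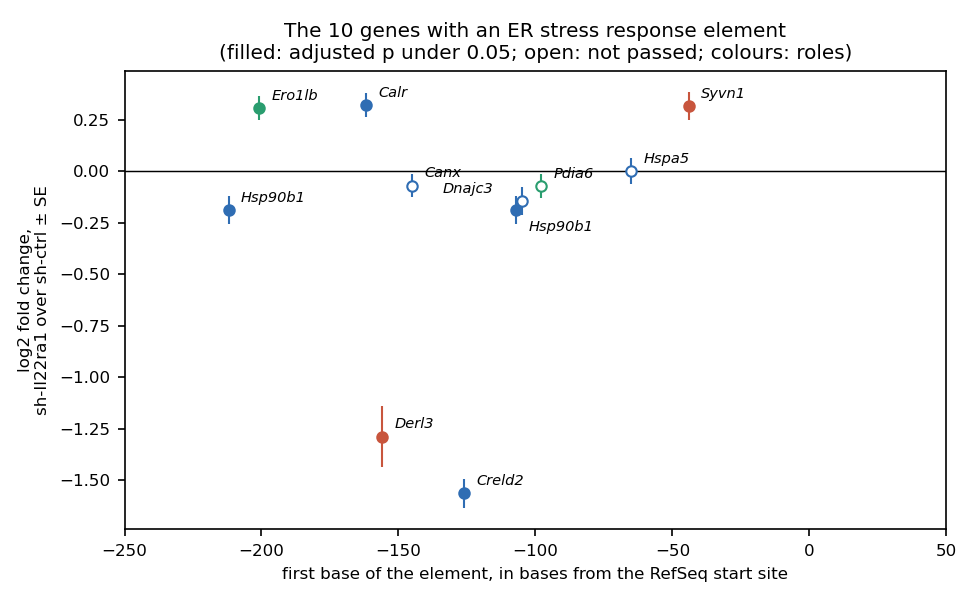
Log2 fold change (sh-Il22ra1 over sh-ctrl, bars ± SE) of the 10 genes with an ER stress response element, against the position of the element's first base relative to the RefSeq start site. Hsp90b1 appears at both of its elements, filled points passed the test, open points did not, and colours give the role (blue for chaperones, green for isomerases and oxidases, red for disposal factors). Derl3 and Creld2 lie below -1, and the other 8 genes lie between -0.19 and 0.32.

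Across the 49 genes, 15 rose and 17 fell in sh-Il22ra1 and 17 did not pass the test (edgeR, adjusted p under 0.05), so 65.3% were called. Over all 13102 tested genes 51.9% were called, 25.4% higher and 26.5% lower, so a called gene is common in this comparison. The median log2 fold change was -0.07 for the 49 genes and -0.00 for all tested genes. Most changes were small: 8 of the 49 genes (16.3%) passed the test with more than a 1.5-fold change, against 16.4% of all tested genes. These 8 were Cdnf, which rose, and Creld2, Edem1, Derl3, Sdf2l1, Pdia5, Wfs1 and Creb3l2, which fell. Past 2-fold stood Cdnf, Creld2, Edem1 and Derl3, 4 of 49 genes (8.16%) against 4.86% of all tested genes. The 2 groups of libraries did not overlap for 23 of the 49 genes (46.9%), against 28.1% of all tested genes. Of the 45 listed genes with a mean of 20 CPM or more, 64.4% were called, against 56.9% of the 7630 tested genes at that level. The groups did not overlap for 21 of these 45 genes and for 2528 of the 7630. The called genes did not share a direction within any of the 4 larger roles, as the plot of fold changes by role shows.

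**Figure D2:**
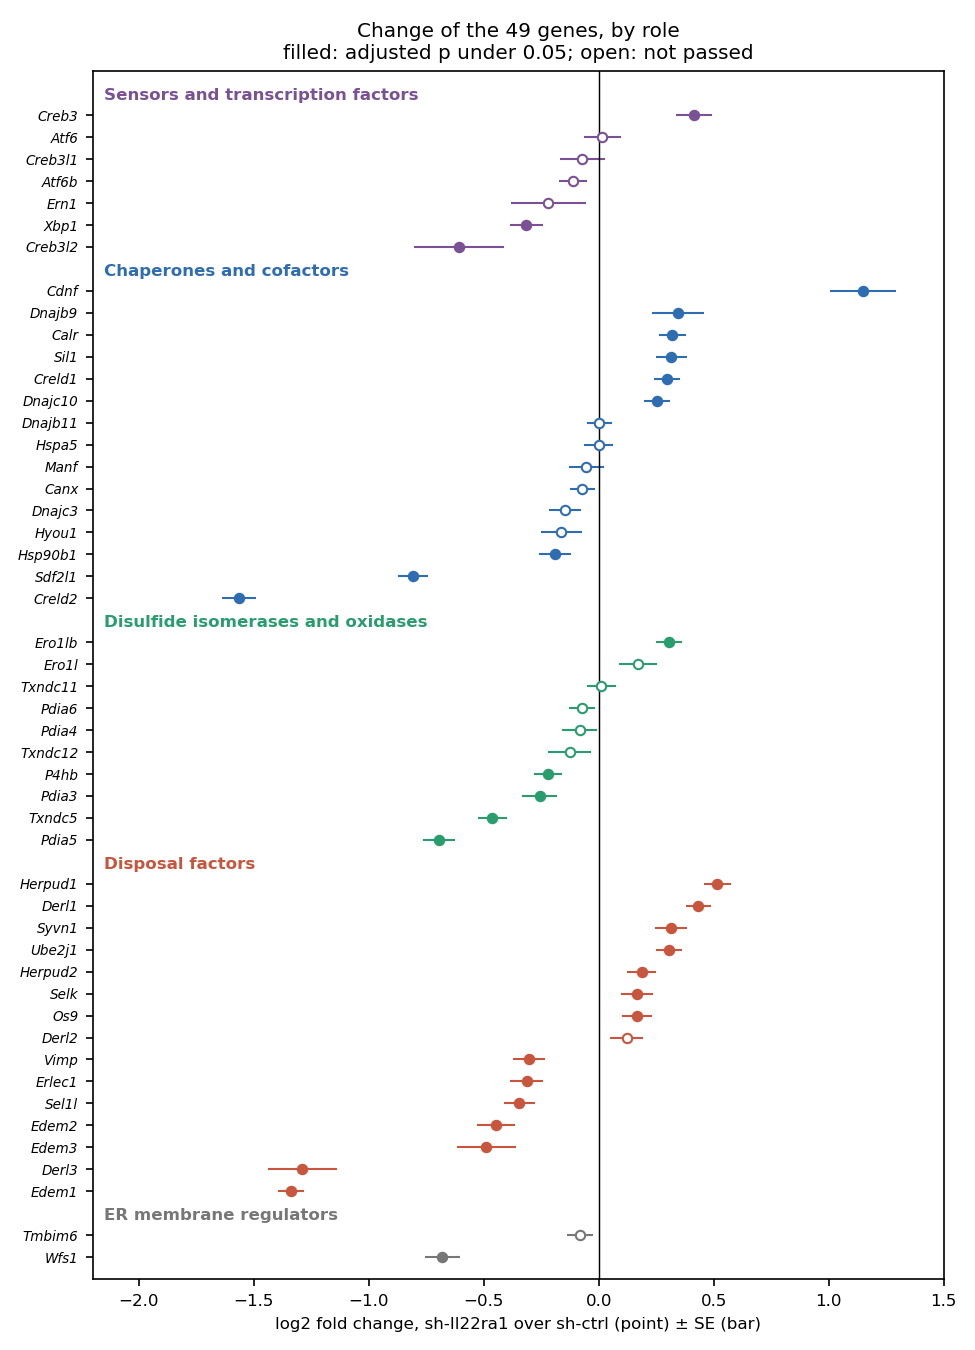
Log2 fold change of each of the 49 genes (points, sh-Il22ra1 over sh-ctrl) with its SE (bars), sorted within the 5 roles; filled points passed the test and open points did not. The disposal factors split into 7 filled points above 0 and 7 below, with Derl2 the open point among them, and Creld2, Edem1 and Derl3 lie farthest to the left.

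Among the sensors and transcription factors, Creb3 rose, Xbp1 and Creb3l2 fell, and Ern1, Atf6, Atf6b and Creb3l1 did not pass the test. Xbp1, the factor made by the IRE1 branch and the most abundant sensor gene per transcript length, ranged from 110 to 124 CPM with a median of 119 in sh-Il22ra1, and from 128 to 182 CPM with a median of 142 in sh-ctrl. The groups did not overlap, and sh-ctrl replicate 1 was the high library. Its log2 fold change was -0.32 (SE 0.0723, adjusted p = 0.00131), or 1.25-fold lower. Creb3, a membrane-bound factor of the family of ATF6-like proteins, ranged from 96.1 to 107 CPM in sh-Il22ra1 and from 62.8 to 91.4 CPM in sh-ctrl, without overlap (log2 fold change 0.41, SE 0.0782, adjusted p = 0.000237). Of its exon bases 20.8% overlap Gba2 or Tln1 on the opposite strand, and the strand setting of the counting is not given in the sources used here. Creb3l2, a relative of Creb3 that acts on secretory pathway genes, was scarce, with 5.72 to 8.08 CPM and a median of 6.17 in sh-Il22ra1, and 4.74 to 14.5 CPM and a median of 10.2 in sh-ctrl. These ranges overlapped, since sh-ctrl replicate 4 had the lowest value of all 12 libraries. The log2 fold change was -0.61 (SE 0.196, adjusted p = 0.0145), and -0.85 without sh-ctrl replicates 1 and 4.

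Ern1, the IRE1 kinase and nuclease, varied widely within sh-ctrl. It ranged from 73.2 to 102 CPM with a median of 91.9 in sh-Il22ra1, and from 66.6 to 147 CPM with a median of 104 in sh-ctrl. Sh-ctrl replicates 1 and 4 were lowest at 66.6 and 67.8 CPM, and replicates 2 and 6 highest at 147 and 145 CPM. Over all libraries it did not pass the test (log2 fold change -0.22, SE 0.164, adjusted p = 0.274), but it did without replicate 4 (-0.33, adjusted p = 0.0478) and without replicates 1 and 4 (-0.47, adjusted p = 4.85e-05). Atf6, the sensor cut in the Golgi, averaged 63.6 ± 3.32 CPM in sh-Il22ra1 and 62.9 ± 8.57 CPM in sh-ctrl (SD, n = 6 each), with a log2 fold change of 0.02 and a 95% interval from -0.14 to 0.17. With offsets for transcript length and GC content, which raised the median of all tested genes to 0.03, Atf6 passed as higher (0.19, adjusted p = 0.00207). Its relative Atf6b averaged 127 ± 7.04 and 137 ± 10.6 CPM (-0.11, adjusted p = 0.132, and 0.0247 without sh-ctrl replicates 1 and 4). Creb3l1, scarce at 9.38 ± 0.679 CPM in sh-Il22ra1 and 9.87 ± 1.12 CPM in sh-ctrl, had a log2 fold change of -0.07 (adjusted p = 0.556).

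Among the 15 chaperones and cofactors, 6 rose, 3 fell and 6 did not pass the test, so 60% were called, near the 51.9% of all tested genes. Hspa5, which encodes BiP, the main ER Hsp70 and a standard readout of ER stress, ranged from 415 to 454 CPM with a median of 433 in sh-Il22ra1, and from 374 to 493 CPM with a median of 439 in sh-ctrl. The sh-Il22ra1 range lay inside the sh-ctrl range. The log2 fold change was -0.00 (SE 0.0623), with a 95% interval from -0.12 to 0.12. Its cochaperones and partners moved in both directions around it. Sdf2l1, an ER protein that works with J-domain cochaperones of BiP, ranged from 77.5 to 98.4 CPM with a median of 87.7 in sh-Il22ra1, and from 141 to 168 CPM with a median of 150 in sh-ctrl. Every sh-Il22ra1 library lay below every sh-ctrl library, 1.75-fold lower on the fitted scale (log2 fold change -0.81, SE 0.0657, adjusted p = 1.17e-08).

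Of the J-domain cochaperones of BiP, Dnajb9 and Dnajc10 rose, while Dnajb11 and Dnajc3 did not pass the test. Dnajb9 (ERdj4), which binds misfolded clients and IRE1, averaged 66.2 ± 9.24 CPM in sh-Il22ra1 and 52.2 ± 10.4 CPM in sh-ctrl (log2 fold change 0.34, adjusted p = 0.0172), with overlapping ranges. Dnajc10 (ERdj5), which is also a disulfide reductase in ERAD, averaged 98.5 ± 5.53 and 82.6 ± 3.99 CPM without overlap (0.25, adjusted p = 0.00103). Dnajb11 (ERdj3) averaged 239 CPM in both groups, ± 12.2 in sh-Il22ra1 and ± 13.7 in sh-ctrl. Dnajc3 (P58IPK), also known as an inhibitor of PERK, averaged 53.5 ± 5.35 and 59.3 ± 2.24 CPM (-0.15, adjusted p = 0.0789). It passed when sh-Il22ra1 replicate 1 or sh-ctrl replicate 4 was left out (adjusted p = 0.0409 and 0.0447), and without sh-ctrl replicates 1 and 4 (-0.17, adjusted p = 0.0362). The nucleotide exchange factors of BiP differed: Sil1 rose, with 113 ± 3.29 CPM in sh-Il22ra1 and 91.0 ± 10.8 CPM in sh-ctrl (0.32, adjusted p = 0.00084), while Hyou1 averaged 424 ± 18.6 and 474 ± 75.5 CPM (-0.16, adjusted p = 0.129). Hyou1 was at 341 CPM in sh-ctrl replicate 1 and at 444 to 546 CPM in the other 5 sh-ctrl libraries, and without replicate 1 it passed as lower (-0.24, adjusted p = 0.00366), as it did without replicates 1 and 4 (-0.30, adjusted p = 2.67e-05). Hsp90b1, which encodes GRP94, fell to 286 ± 19.5 CPM in sh-Il22ra1, against 326 ± 31.6 CPM in sh-ctrl (-0.19, adjusted p = 0.0256). That call was lost without sh-Il22ra1 replicate 2 or 5 or without sh-ctrl replicate 1 or 5, each alone (adjusted p = 0.0521 to 0.0610), and without sh-ctrl replicates 1 and 4 together (-0.13, adjusted p = 0.0536), and 15.7% of its exon bases overlap other genes.

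The lectin chaperones that hold glycoproteins for folding were calreticulin (Calr) and calnexin (Canx). Calr, the most abundant of the 49 genes per transcript length in sh-Il22ra1, ranged from 1232 to 1392 CPM with a median of 1350 in sh-Il22ra1, and from 956 to 1162 CPM with a median of 1060 in sh-ctrl. The groups did not overlap (log2 fold change 0.32, SE 0.0596, adjusted p = 0.00021), a 1.25-fold rise. Canx averaged 295 ± 14 and 310 ± 18.9 CPM and did not pass over all libraries (-0.07, adjusted p = 0.299), but passed as lower without sh-ctrl replicates 1 and 4 (-0.13, adjusted p = 0.0344).

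The remaining chaperone genes form family pairs whose members behaved differently. Creld2, an ER stress-inducible secreted protein with isomerase activity, ranged from 33.9 to 42.9 CPM with a median of 39.2 in sh-Il22ra1, and from 102 to 128 CPM with a median of 114 in sh-ctrl. The highest sh-Il22ra1 library was far below the lowest sh-ctrl library. Its fall was the largest of the 49 genes (log2 fold change -1.56, SE 0.072, adjusted p = 7.87e-12), or 2.96-fold. Creld1, its membrane-anchored relative, ranged instead from 147 to 156 CPM in sh-Il22ra1 and from 116 to 141 CPM in sh-ctrl (0.30, SE 0.0575, adjusted p = 0.000313), without overlap. Cdnf, a relative of the ER stress-inducible trophic protein MANF, ranged from 3.87 to 4.88 CPM with a median of 4.46 in sh-Il22ra1, and from 1.62 to 2.44 CPM with a median of 1.93 in sh-ctrl. It was the largest rise (log2 fold change 1.15, SE 0.144, adjusted p = 2.73e-06, 2.22-fold), without overlap, and rested on 21 to 75 reads per library. Manf itself averaged 258 ± 10.2 CPM in sh-Il22ra1 and 268 ± 37.1 CPM in sh-ctrl (-0.06, adjusted p = 0.567).

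**Figure D3:**
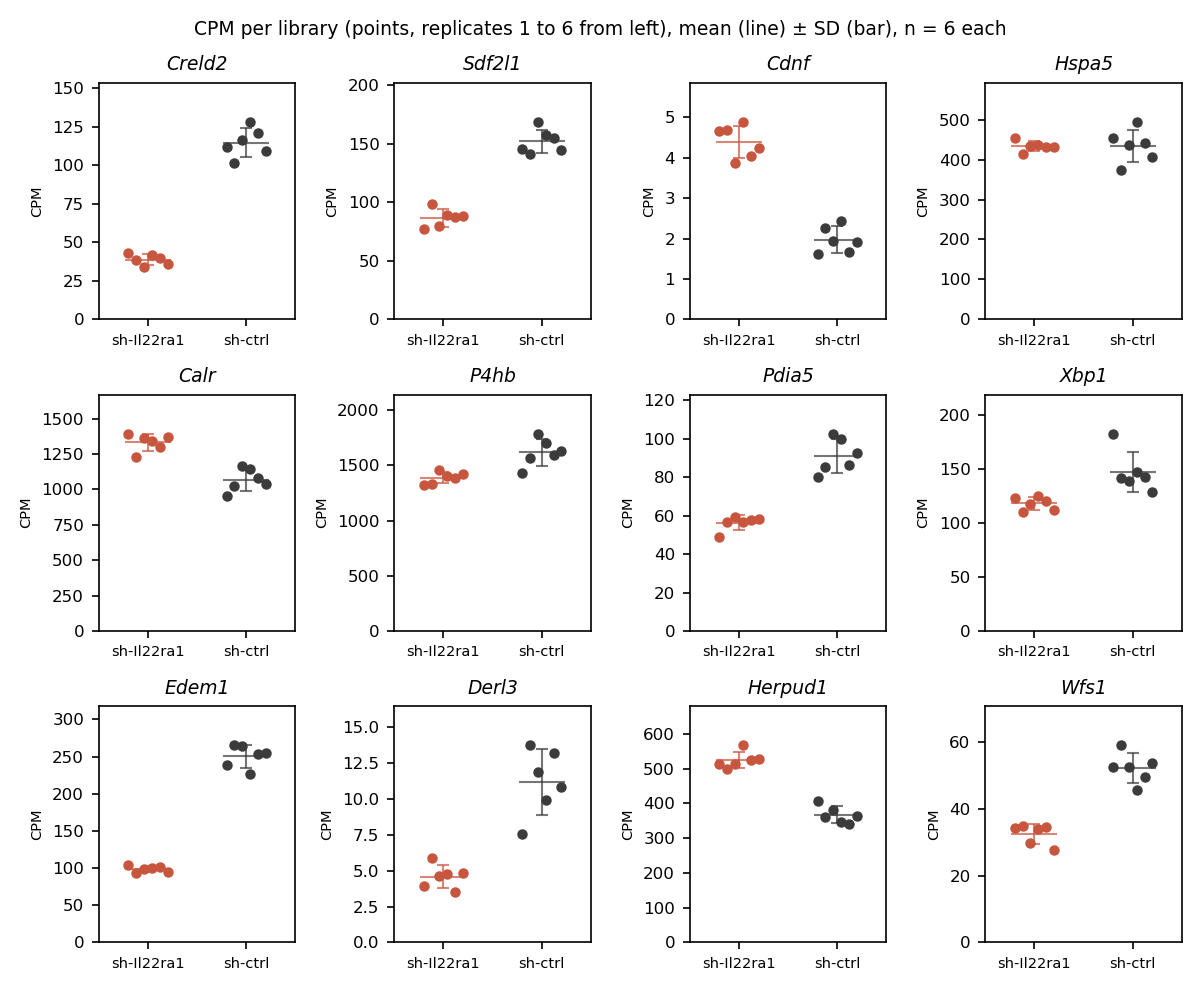
Level in CPM (linear axes from 0) of 12 of the genes in each library (points), with the mean (line) and SD (bar) of 6 libraries per group, sh-Il22ra1 on the left and sh-ctrl on the right of each panel. The groups are apart for Creld2, Sdf2l1, Cdnf, Calr, Pdia5, Xbp1, Edem1, Derl3, Herpud1 and Wfs1, while those of Hspa5 and P4hb overlap.

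Among the 10 disulfide isomerases and oxidases, 1 rose, 4 fell and 5 did not pass the test, so 50% were called, about the 51.9% of all tested genes. P4hb, which encodes protein disulfide isomerase itself and had the highest level per transcript length of the 10, ranged from 1323 to 1459 CPM with a median of 1395 in sh-Il22ra1, and from 1432 to 1785 CPM with a median of 1612 in sh-ctrl. The ranges overlapped only at their ends, and the log2 fold change was -0.22 (SE 0.0598, adjusted p = 0.00462). Pdia3, the glycoprotein isomerase that works with calnexin and calreticulin, averaged 538 ± 40.9 and 643 ± 81.2 CPM (-0.26, adjusted p = 0.00968). Pdia5, another isomerase and one linked to the activation of ATF6 in human cells, ranged from 48.7 to 59.5 CPM with a median of 57.3 in sh-Il22ra1, and from 80.2 to 103 CPM with a median of 89.3 in sh-ctrl. The groups lay far apart, 1.62-fold lower (log2 fold change -0.69, SE 0.0707, adjusted p = 2.21e-07). Txndc5 fell to 80.2 ± 4.26 CPM in sh-Il22ra1, against 111 ± 8.78 CPM in sh-ctrl, without overlap (-0.46, SE 0.0623, adjusted p = 6.31e-06), and shares 11.9% of its exon bases with genes on the opposite strand.

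Ero1lb, the oxidase of isomerases that is abundant in beta cells, ranged from 784 to 919 CPM in sh-Il22ra1 and from 639 to 749 CPM in sh-ctrl, without overlap (log2 fold change 0.31, SE 0.0575, adjusted p = 0.000231). The widely expressed oxidase Ero1l averaged 83.3 ± 8.35 and 74.0 ± 8.76 CPM (0.17, adjusted p = 0.0874). Without sh-ctrl replicate 1, the highest of its group, Ero1l passed as higher (0.23, adjusted p = 0.0211), as it did without replicates 1 and 4 (0.20, adjusted p = 0.0197) and with length and GC offsets (0.26, adjusted p = 0.00106). Pdia4, Pdia6, Txndc11 and Txndc12 did not pass, with log2 fold changes of -0.08, -0.07, 0.01 and -0.13. Of these, Pdia4 passed as lower without sh-ctrl replicates 1 and 4 (-0.18, adjusted p = 0.0155). With length and GC offsets Pdia6 (-0.15, adjusted p = 0.0096) and Txndc12 (-0.24, adjusted p = 0.00116) passed as lower.

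Among the 15 disposal factors, 7 rose, 7 fell and Derl2 did not pass, so 93.3% were called. Of all tested genes 51.9% were called, and 56.9% of those with a mean of 20 CPM or more. The groups did not overlap for 11 of the 15, against 28.1% of all tested genes and 2528 of the 7630 at that level. Edem1, which marks glycoproteins for ERAD by trimming mannose, ranged from 93.9 to 104 CPM with a median of 99.5 in sh-Il22ra1, and from 226 to 265 CPM with a median of 254 in sh-ctrl. No library of either group came near the other group. The fall was 2.53-fold (log2 fold change -1.34, SE 0.0561, adjusted p = 2.2e-12). Its relatives fell less: Edem2 to 34.9 ± 2.48 CPM in sh-Il22ra1, against 47.6 ± 6.14 CPM in sh-ctrl (-0.45, adjusted p = 0.000168), and Edem3 to 17.6 ± 2.10 CPM, against 24.6 ± 5.49 CPM (-0.49, adjusted p = 0.00414). The ranges of Edem3 overlapped, since sh-ctrl replicate 4 was at 15.9 CPM, and its log2 fold change was -0.68 without sh-ctrl replicates 1 and 4.

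The derlins, membrane proteins of the ERAD channel, went in different directions. Derl3 was the scarcest of them, at 3.52 to 5.90 CPM with a median of 4.69 in sh-Il22ra1, and 7.54 to 13.8 CPM with a median of 11.4 in sh-ctrl. It fell 2.44-fold without overlap (log2 fold change -1.29, SE 0.15, adjusted p = 1.1e-06), on 54 to 212 reads per library. Derl1, the most abundant derlin per transcript length, ranged from 343 to 384 CPM in sh-Il22ra1 and from 249 to 298 CPM in sh-ctrl, and rose without overlap (0.43, SE 0.0548, adjusted p = 3.21e-06). Derl2 averaged 84.5 ± 6.87 and 77.6 ± 7.74 CPM (0.12, adjusted p = 0.168). With offsets for transcript length and GC content Derl2 passed as higher (0.16, adjusted p = 0.00918).

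The ubiquitin ligase complex that works on ER substrates also split. Herpud1, a stress-inducible scaffold of that complex and the most abundant disposal factor per transcript length, ranged from 500 to 567 CPM with a median of 520 in sh-Il22ra1, and from 341 to 408 CPM with a median of 362 in sh-ctrl. The groups did not overlap, and the rise was 1.43-fold (log2 fold change 0.52, SE 0.0568, adjusted p = 5.69e-07). Its paralog Herpud2 rose less, to 54.4 ± 4.04 CPM in sh-Il22ra1, against 47.8 ± 1.56 CPM in sh-ctrl (0.19, adjusted p = 0.0159). Syvn1, the ligase HRD1 at the centre of the complex, ranged from 119 to 125 CPM in sh-Il22ra1 and from 83.4 to 112 CPM in sh-ctrl, without overlap (0.31, SE 0.0686, adjusted p = 0.000864). Sel1l, the adaptor that brings substrates to HRD1, went the other way, with 72.6 to 90.2 CPM in sh-Il22ra1 and 94.5 to 110 CPM in sh-ctrl, also without overlap (-0.35, SE 0.0669, adjusted p = 0.000304). The ubiquitin-conjugating enzyme Ube2j1, a partner of HRD1, rose to 147 ± 8.84 CPM, against 119 ± 6.27 CPM in sh-ctrl (0.31, adjusted p = 0.000206).

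Of the lectins that deliver glycoproteins to the complex, Erlec1 fell to 28.4 ± 2.28 CPM in sh-Il22ra1, against 35.3 ± 2.13 CPM in sh-ctrl, without overlap (-0.31, adjusted p = 0.00108). Os9 was higher at 356 ± 10.2 CPM, against 317 ± 35.8 CPM (0.17, adjusted p = 0.0428), with overlapping ranges. The selenoproteins of the derlin complex differed as well, with Vimp at 40.0 ± 3.98 CPM in sh-Il22ra1 and 49.3 ± 2.46 CPM in sh-ctrl (-0.30, adjusted p = 0.00151) and Selk at 93.8 ± 4.61 and 83.6 ± 9.05 CPM (0.17, adjusted p = 0.0487). The calls of Os9 and Selk were fragile. Os9 kept its call only without sh-ctrl replicate 4 or 6 when 1 of 12 libraries was left out, and had adjusted p from 0.0517 to 0.110 without any of the other 10. Selk lost its call in 9 of the 12 cases (adjusted p from 0.0702 to 0.114) and kept it without sh-Il22ra1 replicate 2 or sh-ctrl replicate 1 or 4.

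Of the 2 ER membrane proteins, Wfs1, whose human counterpart is mutated in Wolfram syndrome with diabetes, fell. It ranged from 27.8 to 35.0 CPM with a median of 34.2 in sh-Il22ra1, and from 45.7 to 59.0 CPM with a median of 52.5 in sh-ctrl, without overlap. The fall was 1.60-fold (log2 fold change -0.68, SE 0.0761, adjusted p = 6.91e-07). Tmbim6, which encodes the cell death inhibitor BI-1, ranged from 503 to 568 CPM with a median of 539 in sh-Il22ra1, and from 527 to 640 CPM with a median of 561 in sh-ctrl (-0.08, SE 0.0572, adjusted p = 0.235).

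Related genes were then set against each other within each library, as the log2 ratio of their CPM (with 0.1 CPM added). Any shared scaling would leave this ratio unchanged but for the added 0.1 CPM. Of 22 pairs, 16 differed between the groups in exact permutation tests of 6 against 6 libraries (two-sided), adjusted by Benjamini-Hochberg over the pairs. The pairs were chosen with earlier results of these data known, and no share over other gene pairs was computed. Since 51.9% of all tested genes were called, this count is not read as a trait of these pairs. The smallest adjusted value that occurred was 0.00396, from the smallest exact p of 0.00216, and 12 pairs reached it. Creld2 stood at 0.256 of Creld1 in sh-Il22ra1 and at 0.932 in sh-ctrl, a log2 difference of -1.86. Edem1 stood at 2.83 times Edem2 in sh-Il22ra1 and at 5.28 times in sh-ctrl, a log2 difference of -0.90, and its difference against Edem3 was -0.88. The log2 difference was -1.38 for Derl3 over Derl2, -1.17 for Manf over Cdnf and -0.82 for Sdf2l1 over Hspa5, so these members moved apart from their partners. In the ligase complex Syvn1 stood at 1.56 times Sel1l in sh-Il22ra1 and at 0.982 times in sh-ctrl, a log2 difference of 0.67. The same adjusted value of 0.00396 (exact permutation test) was reached by Os9 over Erlec1 (0.49), Selk over Vimp (0.48), Calr over Canx (0.39), Dnajc3 over Dnajc10 (-0.40) and Hsp90b1 over Hspa5 (-0.19).

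The other 4 pairs that passed the exact permutation test were Herpud1 over Herpud2 (0.33, adjusted 0.00733), Derl1 over Derl2 (0.31, adjusted 0.0170), Sil1 over Hyou1 (0.47, adjusted 0.0223) and Creb3l2 over Creb3 (-0.94, adjusted 0.0297). Dnajb9 over Dnajb11 (0.35, adjusted 0.0560), Ero1lb over Ero1l (0.13, adjusted 0.284), Atf6 over Atf6b (0.14, adjusted 0.306) and Xbp1 over Ern1 (-0.16, adjusted 0.642) did not pass. Pdia3 over P4hb (-0.03, adjusted 0.709) and Pdia4 over Pdia6 (-0.00, adjusted 0.970) had the smallest differences, with ratios of 0.387 and 0.396 for Pdia3 over P4hb in sh-Il22ra1 and sh-ctrl, and of 0.220 in both groups for Pdia4 over Pdia6. That a pair missed the threshold does not show that its genes changed alike.

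**Figure D4:**
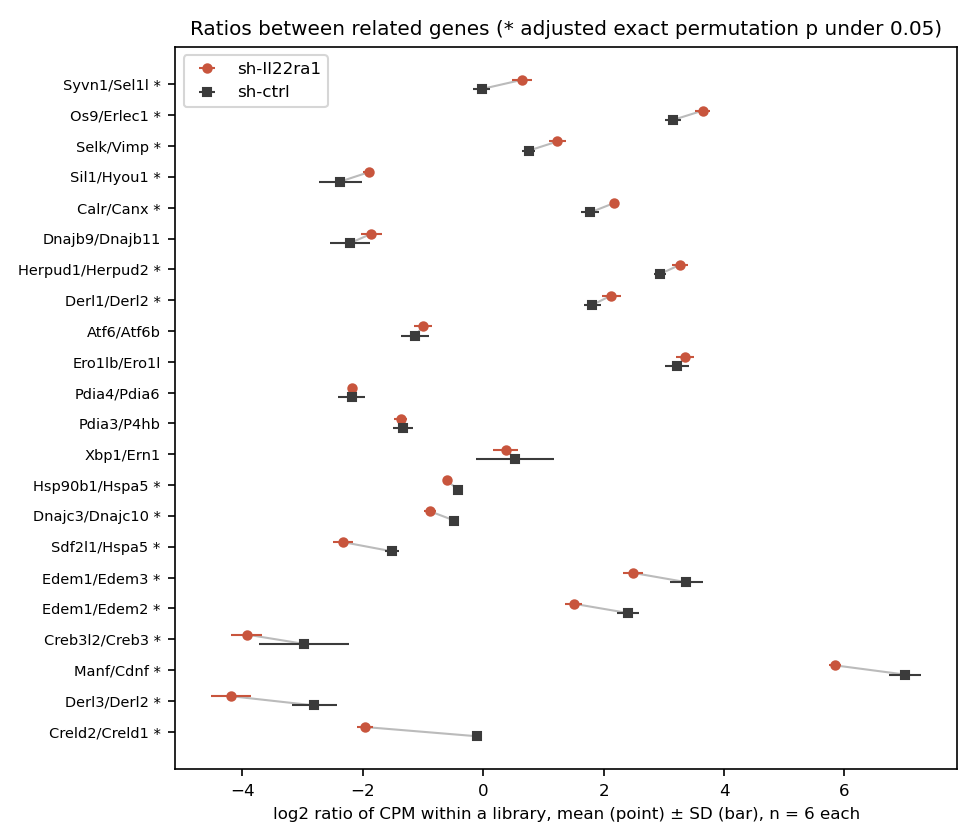
Log2 ratio of CPM between 22 pairs of related genes within each library, as the mean (point) ± SD (bar) of 6 sh-Il22ra1 libraries (red circles, upper) and 6 sh-ctrl libraries (dark squares, lower); an asterisk marks an adjusted exact permutation p under 0.05. Creld2/Creld1 shows the widest gap, with means of -1.96 in sh-Il22ra1 and -0.10 in sh-ctrl, and Pdia4/Pdia6 shows none beyond its SD.

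Summed over each role, the levels changed far less than those of the 8 genes called past 1.5-fold. Each sum depends most on its most abundant genes. The 49 genes together took 10780 ± 243 CPM in sh-Il22ra1 and 10900 ± 412 CPM in sh-ctrl (SD, n = 6 each), or 1.08% and 1.09% on the scale after TMM. The disposal factors summed to 2056 ± 41.1 CPM in sh-Il22ra1 and 1903 ± 24.0 CPM in sh-ctrl, with ranges of 1985 to 2102 CPM and 1875 to 1936 CPM that did not overlap, although equal numbers of them rose and fell. The isomerases and oxidases summed to 3760 ± 137 and 4032 ± 226 CPM, the chaperones to 3880 ± 113 and 3795 ± 170 CPM, the sensors to 517 ± 9.27 and 549 ± 26.8 CPM and the 2 ER membrane proteins to 570 ± 22.5 and 621 ± 36.6 CPM. Per kilobase of transcript, Calr led the 49 genes in sh-Il22ra1 at 610 ± 26.7 CPM per kb, ahead of P4hb at 485 ± 18.1, and in sh-ctrl P4hb led at 565 ± 42.4, ahead of Calr at 489 ± 35.4. At the other end, Creb3l2 was lowest in sh-Il22ra1 (0.940 ± 0.154 CPM per kb) and Cdnf in sh-ctrl (0.657 ± 0.108).

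The 49 genes varied more between sh-ctrl libraries than between sh-Il22ra1 libraries. Their median coefficient of variation was 5.61% in sh-Il22ra1 and 9.43% in sh-ctrl, and 6.36% in sh-ctrl without replicates 1 and 4. It was larger in sh-ctrl for 38 of the 49 genes, as it was for 71.7% of all tested genes. Sh-ctrl replicate 4 was the lowest or highest of its group for 30 of the 49 genes, among them the lowest for Creb3l2, Dnajb9, Edem3 and Syvn1, and the highest for Hspa5, Manf, Pdia3, Os9 and Txndc12. Other libraries were often at an end too: sh-Il22ra1 replicates 1 and 2 for 25 genes each, and sh-ctrl replicates 1 and 2 for 21 and 20. The same share over all tested genes was not computed. The heat map of the 49 genes in each library shows the column of sh-ctrl replicate 4 beside the others.

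**Figure D5:**
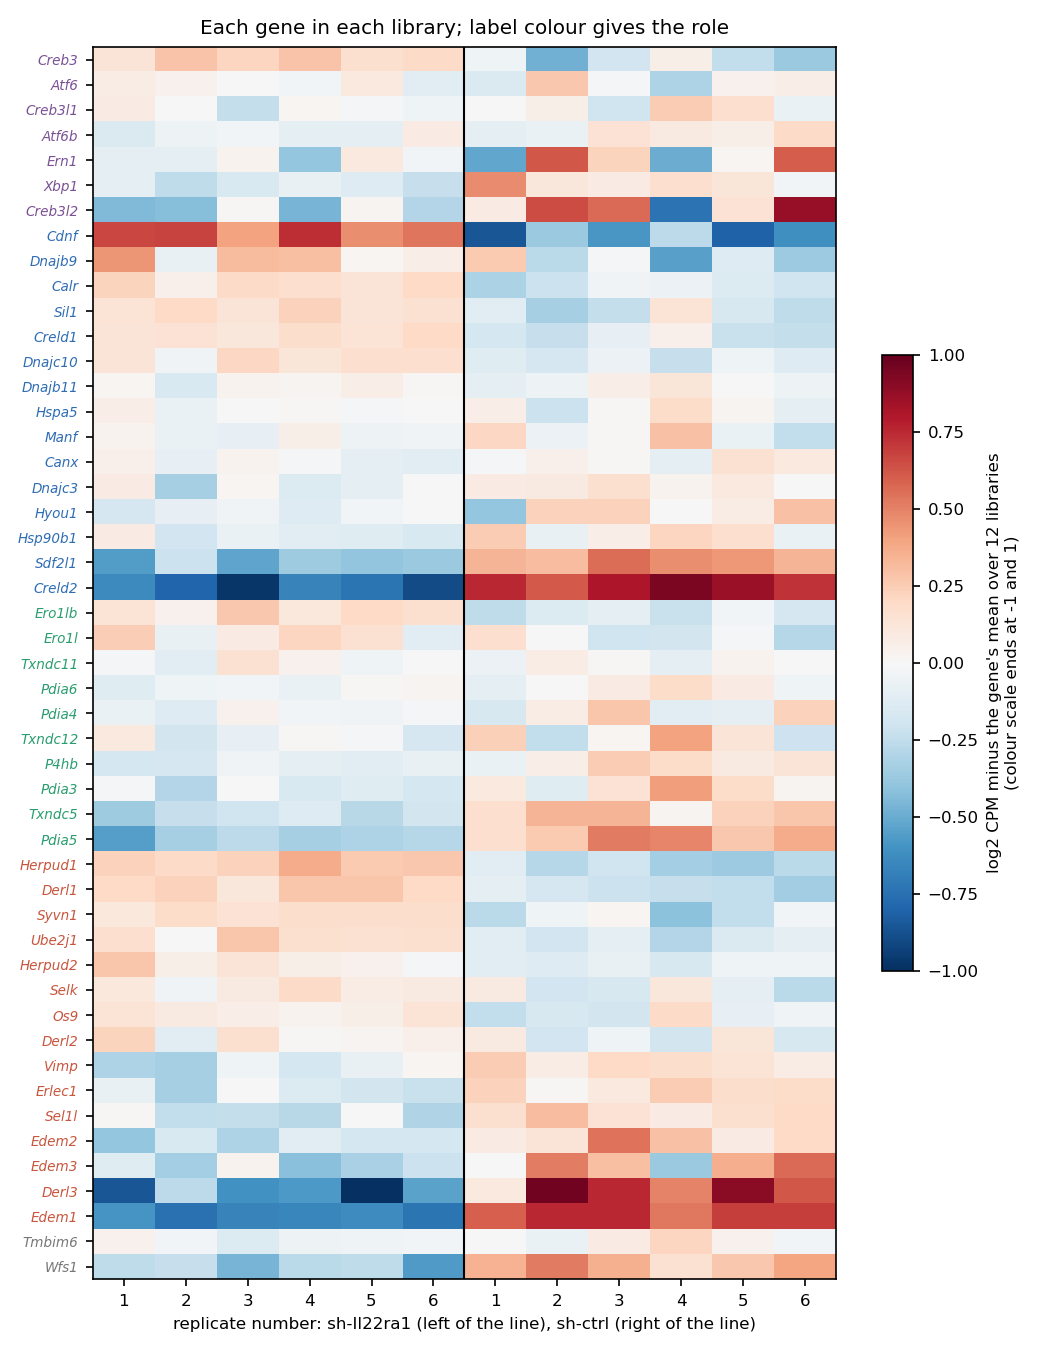
Log2 CPM of each of the 49 genes in each of the 12 libraries, minus the gene's mean over the 12 (colour, limited to -1 and 1), with sh-Il22ra1 replicates 1 to 6 left of the line and sh-ctrl replicates 1 to 6 right of it; gene names are coloured by role. Creld2, Edem1 and Derl3 are blue on the left and red on the right, Cdnf is the reverse, and Ern1 and Creb3l2 vary in colour within sh-ctrl, where replicate 4 is low.

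Other genes of the response were counted by lists chosen with earlier results of these data known. The PERK branch, which the 49 genes leave out, had 5 of 11 genes higher, 1 lower and 5 not passed, so 54.5% were called, near the 51.9% of all tested genes. Eif2ak3, which encodes PERK, rose to 69.2 ± 6.25 CPM in sh-Il22ra1, against 53.1 ± 10.2 CPM in sh-ctrl (log2 fold change 0.38, adjusted p = 0.00546). Its main effector Atf4 averaged 877 ± 18.3 and 799 ± 77.3 CPM (0.13, adjusted p = 0.0827), and Ddit3, which encodes the death-associated factor CHOP, 150 ± 15.4 and 142 ± 36.5 CPM (0.09, adjusted p = 0.585). Sesn2 (log2 fold change 0.53), Ppp1r15b (0.43), Atf3 (0.21) and Asns (0.19) rose, while Trib3, a target of CHOP, fell to 293 ± 20 CPM, against 463 ± 52.0 CPM (-0.66, adjusted p = 5.61e-07). Without sh-ctrl replicates 1 and 4, 8 of the 11 were higher, and the higher calls over all tested genes also grew in number, to 3781 against 3323 with every library.

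Among 26 tested of 29 other ER folding genes, 8 rose, 4 fell and 14 did not pass (46.2% called, against 51.9% of all tested genes). Mogs (log2 fold change 0.56) and Ganab (0.54), which trim glucose from new N-glycans, and Tor1b (0.38) rose with the smallest p, and Clgn (-0.63), Fkbp2 (-0.47) and Sec63 (-0.20) fell. Among 26 other ERAD genes, 11 rose, 4 fell and 11 did not pass (57.7% called, against 51.9% of all tested genes). The ligases Rnf5 (0.42) and Rnf139 (0.34) and the mannosidase Man1b1 (0.29) rose, while Ubxn8 fell to 7.69 ± 1.14 CPM, against 17.6 ± 1.04 CPM (-1.19, adjusted p = 1.89e-08), and Bag6 (-0.38) and Ngly1 (-0.32) fell as well. Of 11 tested of 13 genes that process or control the sensors, 2 rose, 1 fell and 8 did not pass (27.3% called, against 51.9% of all tested genes). Bak1 (0.56) and Rtcb (0.19), the ligase that joins Xbp1 after IRE1 cuts it, rose. Ptpn1 fell (-0.13, adjusted p = 0.0492, a call lost under many other settings). Of 7 genes reported as mRNAs cut by IRE1, 3 were tested (66.7% called, against 51.9% of all tested genes). Hgsnat rose (0.47), Pmp22 fell (-1.64) and Bloc1s1, the best-known of them, averaged 36.1 ± 4.29 and 38.5 ± 7.31 CPM (-0.09, adjusted p = 0.499). The insulin genes, the main load of this ER, averaged 2721 ± 195 and 3502 ± 512 CPM for Ins1 (-0.36, adjusted p = 0.00153) and 42880 ± 3216 and 49590 ± 10350 CPM for Ins2 (-0.21, adjusted p = 0.123).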

How the data were processed

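Total RNA of 12 Min6 samples was sequenced as paired ends. Per the submitters' processing notes, HISAT2 2.0.5, HTSeq and the mm10 build were used; which annotation, strand setting and options the counting had is not given in the sources used here. The deposited files hold whole-number counts for 24421 gene symbols per library, made by the authors, plus 5 rows of unassigned reads that were left out; the rows left out took 8.71% to 17.3% of a file for unaligned reads. Groups were taken from the sample titles. In the treatment label, sh-Il22ra1 samples 2 to 6 have their own number in the gene name's last place; the title decided their group. Depth was 13108494 to 15887448 gene reads.

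The 49 genes, their roles, the related lists, the pairs and the tests were chosen with earlier results of these data known. Genes were filtered with filterByExpr (minimum count 10, minimum total 15), which kept 13102 of 19024 genes with a read, scaled by TMM and compared in edgeR 4.0.16 (R 4.3.3) with the two-sided quasi-likelihood test, Benjamini-Hochberg adjusted over all tested genes at 0.05. The SE is the log2 fold change divided by the square root of F, and levels per kb use GENCODE M21 transcript length. Single values and pair ratios were tested by exact permutation over all 924 splits of 6 against 6 libraries. Genes called past 1.5-fold, and the most abundant gene per length of each role, are given with lowest, median and highest values. Every pair of libraries within a group differed beyond sampling noise (lowest chi-square per degree of freedom 3.82), so none was merged.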

Additional observations from a re-analysis of the deposited data

Results flagged for a closer look

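In each group of 6 libraries the highest and lowest value was compared with the rest of its group, for the 49 genes and the library measures. Of 116 groups examined, 6 had a library far from the others, and chance gives about 1 in 20. Xbp1 reached 182.1 CPM in sh-ctrl replicate 1, with the other sh-ctrl libraries at 128.5 to 147.0 CPM. Dnajb11 was at 215.2 CPM in sh-Il22ra1 replicate 2, with the others at 241.0 to 249.6 CPM. Dnajc10 was at 88.15 CPM in the same library, with the others at 98.21 to 104.2 CPM. That library also had 6.822% of its reads at low alignment quality, with the others at 3.992% to 4.792%. Pdia5 was at 48.69 CPM in sh-Il22ra1 replicate 1, with the others at 56.69 to 59.52 CPM. Genes with at least 1 read numbered 15963 in sh-ctrl replicate 3, with the others at 16140 to 16207. The calls of Xbp1, Dnajc10 and Pdia5 held when each of these libraries was left out.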

How the results depend on the processing

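Of the 32 calls, 29 held under all 23 alternative fits (other scalings, filters, DESeq2 1.42.0, limma-voom, each library left out, sh-ctrl replicates 1 and 4 left out, a replicate block, length and GC offsets); Hsp90b1, Os9 and Selk lost theirs in some, and no sign of a called gene reversed. Of the 17 uncalled genes, 11 passed in at least 1 alternative: Ern1, Atf6b, Hyou1, Dnajc3, Canx, Pdia4 and Ero1l with libraries left out, and Atf6, Pdia6, Txndc12, Derl2 and again Ero1l with length and GC offsets. Members called higher ranged from 13 to 17 and lower from 16 to 22. Over all tested genes, higher calls ranged from 2881 to 4400 and lower calls from 3239 to 4146. Without sh-ctrl replicates 1 and 4, calls over all tested genes grew from 3472 to 4146 lower and from 3323 to 3781 higher. In that fit lower sensors numbered 4, lower chaperones 5, higher isomerases and oxidases 2, higher PERK branch genes 8, and lower sensor-processing genes 2. The last count was 0 with RLE scaling, with no low-count filter and with the replicate block, and 0 to 1 with single libraries left out. Higher isomerases and oxidases numbered 1 to 2 with single libraries left out, where Ero1l was gained without sh-ctrl replicate 1. Length and GC offsets moved the median of all tested genes to 0.03. Over all tested genes they gave 4247 higher and 3406 lower calls, and 4400 and 3486 with the replicate block. The main fit had 3323 and 3472. The offsets gave 2 higher sensors, 2 higher isomerases and oxidases and 2 lower RIDD substrates, with or without the replicate block. With the block they gave 7 lower ER folding genes. They also gave log2 fold changes of -0.21 for Sel1l and 0.08 for Selk and, with the block, -0.40 for Creb3l2 and -0.32 for Edem3. The cause was not tested.

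The replicate block gave 16 genes higher and 17 lower, with Ero1l gained (adjusted p = 0.0397). Same-numbered libraries deviated together with correlations of -0.03 to 0.23, and 2 of 6 correlated best with their own number, so the numbers were not taken as pairs. Pseudocounts of 0.5 and 0 CPM moved no pair across the threshold, and library sizes without TMM left the permutation p of Il22ra1 at 0.00216. Low counts limit Cdnf, Derl3 and Creb3l2 most.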
